A study of Mus musculus with 9 samples.

Results

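The replication-dependent histone genes were examined as regions of open chromatin in the developing heart of the mouse. In ATAC-Seq, a transposase cuts DNA that is not covered by nucleosomes, and the sites where cuts accumulate are called as accessible regions. Every accessible region of the control list whose gene symbol began with Hist1h, Hist2h, Hist3h or Hist4h was taken, and a region written more than once was kept a single time. This gave 26 regions of 17164 in the list. The list held 29 such rows of 17432 as deposited, because 1 region was written 4 times. Of the 26 regions, 22 carried a symbol of the Hist1 cluster, 2 of the Hist2 cluster, 2 of the Hist3 cluster and 0 of Hist4.

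The tissue was the pharyngeal mesoderm together with the heart, taken from mouse embryos of 6 somites at embryonic day 8.75. The study comprised 3 wild-type (wt) control embryo libraries, 3 libraries of Isl1-/- embryos and 3 of Isl1Cre+/-/Brg1fl/fl embryos, in which Cre driven from the Isl1 locus deletes Brg1 in cells that express Isl1 and in their descendants. The values used here were those of the wild-type group alone, as a single list of regions common to its 3 libraries. The mutant libraries were not analysed here. The list holds edges and no heights, so the depth behind a region is unknown, no value can be given per library, and no test between samples can be made. As to the tissue, 3 of 6 genes of cardiac and pharyngeal development, named after their values were seen, had an accessible region at most 1 kb from a start (Isl1, Tbx20 and Hand2, but not Gata4, Nkx2-5 or Tbx1). The share among all coding genes was 45.1%, so this count does not check the tissue, and Pax5 was the 1 of 4 genes of other tissues with such a region (Alb, Myod1 and Ins2 had none).

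Replication-dependent histone genes encode the H1, H2A, H2B, H3 and H4 proteins that package newly made DNA, and they are transcribed mainly while a cell copies its genome. They lie close together in a few clusters, often as an H2A gene and an H2B gene that are read in opposite directions from a shared promoter. Their short transcripts lack introns and a poly(A) tail and end at a conserved stem-loop that is bound by stem-loop binding protein. Many of the copies are nearly identical in sequence. Replication-independent variant genes, such as H2afz and H3f3a, are expressed throughout the cell cycle.

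The sequences that mark these genes are shown first, since the regions are described against them. All were read from NCBIM37, the assembly of mm9, and run 5′ to 3′. The DNA between the starts of an H2A gene and an H2B gene is given for 4 divergent pairs on the plus strand, with capitals for the CCAAT box, for the TATA box (written TATAAA) and for the octamer, which reads ATTTGCAT, each on either strand. TATAAA occurred in none of these stretches. The first pair below lay inside an accessible region, as did the pair after it, and the other pairs had no region.
Hist1h2ah/Hist1h2bk, chr13:22127512-22127690: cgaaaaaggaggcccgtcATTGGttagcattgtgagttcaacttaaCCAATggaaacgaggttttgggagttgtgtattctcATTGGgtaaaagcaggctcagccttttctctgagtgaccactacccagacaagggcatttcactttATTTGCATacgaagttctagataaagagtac
Hist1h2bf/Hist1h2ad, chr13:23666065-23666250: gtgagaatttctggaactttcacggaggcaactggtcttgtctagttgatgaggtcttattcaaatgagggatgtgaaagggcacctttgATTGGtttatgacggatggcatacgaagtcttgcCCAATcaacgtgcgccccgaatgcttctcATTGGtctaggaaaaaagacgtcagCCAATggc
Hist1h2ak/Hist1h2bn, chr13:21845776-21845992: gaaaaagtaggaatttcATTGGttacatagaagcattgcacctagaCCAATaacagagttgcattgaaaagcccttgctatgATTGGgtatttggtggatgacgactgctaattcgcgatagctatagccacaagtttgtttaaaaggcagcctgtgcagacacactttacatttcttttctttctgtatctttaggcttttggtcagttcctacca
Hist1h2bq/Hist1h2ao, chr13:21902068-21902236: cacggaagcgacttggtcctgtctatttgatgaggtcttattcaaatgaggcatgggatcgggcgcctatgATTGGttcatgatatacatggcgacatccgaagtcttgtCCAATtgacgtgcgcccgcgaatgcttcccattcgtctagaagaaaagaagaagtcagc

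CCAAT boxes occurred on both sides of the comparison. The pairs inside a region held 3 and 4 of them, and the pairs without a region held 3 and 2. The starts of Hist1h2bq and Hist1h2ao lay in sequence that is 100% repeated in the genome, as measured below. The part that the placing of reads had in the lack of a region there was not tested.

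The H4 genes were the type that least often had a region, so the start and the 150 bases before it are given for the 2 H4 genes with a region nearby (Hist1h4j and Hist1h4a) and for Hist1h4c, which had none, on the strand of each gene. Capitals mark GGTCCG, the core of the H4 promoter element, and CCAAT.
Hist1h4j, chr13:21826753-21826903, plus strand: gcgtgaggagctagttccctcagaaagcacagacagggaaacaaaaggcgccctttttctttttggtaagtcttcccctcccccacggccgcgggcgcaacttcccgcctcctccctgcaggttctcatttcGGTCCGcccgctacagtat
Hist1h4a, chr13:23853099-23853249, minus strand: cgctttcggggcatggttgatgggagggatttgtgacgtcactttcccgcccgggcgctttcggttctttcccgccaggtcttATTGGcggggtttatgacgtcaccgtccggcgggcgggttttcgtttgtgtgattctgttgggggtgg
Hist1h4c, chr13:23790323-23790473, minus strand: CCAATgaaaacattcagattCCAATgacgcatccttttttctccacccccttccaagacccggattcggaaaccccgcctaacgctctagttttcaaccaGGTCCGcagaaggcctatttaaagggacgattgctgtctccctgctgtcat

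The stem-loop that ends histone mRNAs came in 6 versions, shown with the paired arms of 6 bases in capitals and the loop of 4 bases in lower case. The first, second and last were found in H1, H2A, H2B or H3 genes, and the 3 others in H4 genes.
Stem-loop of 39 genes: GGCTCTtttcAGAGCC
Stem-loop of 9 genes: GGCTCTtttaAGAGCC
Stem-loop of 8 H4 genes: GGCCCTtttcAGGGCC
Stem-loop of 2 H4 genes, Hist1h4i and Hist2h4: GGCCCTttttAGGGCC
Stem-loop of 2 H4 genes, Hist1h4j and Hist1h4b: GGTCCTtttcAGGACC
Stem-loop of Hist2h2ac: GGCTCTttttAGAGCC

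The label of the genes was checked against this sequence. GGNNCTTTTNANNNCC was present on the coding strand within 150 bp after the last coding base in 61 of 67 coding histone genes (91.0%) and in 68 of 22380 coding genes in all (0.304%). It began 25 to 62 bases after the last coding base. Among the 7 genes outside the clusters that held it was H2afx, the variant gene whose product is phosphorylated at DNA breaks. All 12 H4 genes with a match had an arm opening GGCCC (10 genes) or GGTCC (2 genes), and all 49 matches among the 54 genes of the other types opened with GGCTC. The 6 histone genes without a match were Hist1h2an, Hist1h3g, Hist1h4a, Hist1h2al, Hist2h2be and Hist2h2bb. The letters were found in 31 of the 36 genes with a region within 1 kb of a start and in 30 of the 31 without.

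Next, the number of histone genes with accessible chromatin was determined. The annotation of the build held 70 genes with a Hist1 to Hist4 symbol, of which 67 were coding and 3 were pseudogenes. A region carried the symbol of 23 of the 67 coding genes (34.3%, 95% Wilson interval 24.1 to 46.3), while 43.2% of all 22380 coding genes had an assigned region. By position, whatever the symbol, 36 of the 67 genes (53.7%, interval 41.9 to 65.1) had a region within 1 kb of an annotated start, called an open start hereafter, and 45.1% of all coding genes did. Histone genes mostly have a single annotated start, and among all coding genes with 1 annotated start 28.9% had a region within 1 kb. The shares of 43.2% and 45.1% lay inside the matching intervals of the histone genes, and 28.9% lay below the interval by position. These intervals cover counting over genes only, and neighbouring genes share regions.

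The symbol and the position of a region often named different genes. Of 30 genes with a start inside a region, 11 lay in a region that carried the symbol of another gene. In all, 15 genes had an open start and no region under their own name, and Hist1h4h and Hist2h2bb had a region under their name but no open start. Hist1h2bl and Hist1h2ah had an open start, but the only region under their own name lay over 1 kb away (5480 and 6602 bp). The complete coding sequence of 28 genes lay inside a region. No region with a symbol from outside the clusters (0 regions) lay within 1 kb of a coding histone start.

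Open starts were next compared between the histone types. H2A genes had an open start in 13 of 19 cases (68.4%, interval 46.0 to 84.6) and H2B genes in 12 of 18 (66.7%, interval 43.7 to 83.7). For H3 the count was 6 of 11 (54.5%, interval 28.0 to 78.7), and for the linker histone H1 it was 3 of 6 (50.0%, interval 18.8 to 81.2). H4 genes had an open start in 2 of 13 cases (15.4%, interval 4.33 to 42.2), and this interval did not overlap that of H2A or H2B. The intervals overlapped when genes with over 50% repeated sequence were left out (5.14 to 47.7 for H4, 40.9 to 92.9 for H2A and 31.3 to 83.2 for H2B), and with a limit of 2 kb Hist1h4i was added to the H4 genes with a region. No test was made of this difference, since genes that share a region or a sequence are not independent. Among all coding genes the share was 45.1%, which lay above the first H4 interval. Each H4 gene has 1 annotated start, and among all coding genes with 1 start the share was 28.9%, inside that interval. The order of the types depended on the window. A start lay inside a region in 11 of 19 H2A and 12 of 18 H2B genes. For H3 this held in 3 of 11 genes, for H1 in 2 of 6 and for H4 in 2 of 13. The other H3 genes with an open start, Hist1h3h, Hist1h3c and Hist1h3d, lay 476, 309 and 797 bp from regions with H2A or H2B symbols.

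**Figure D1:**
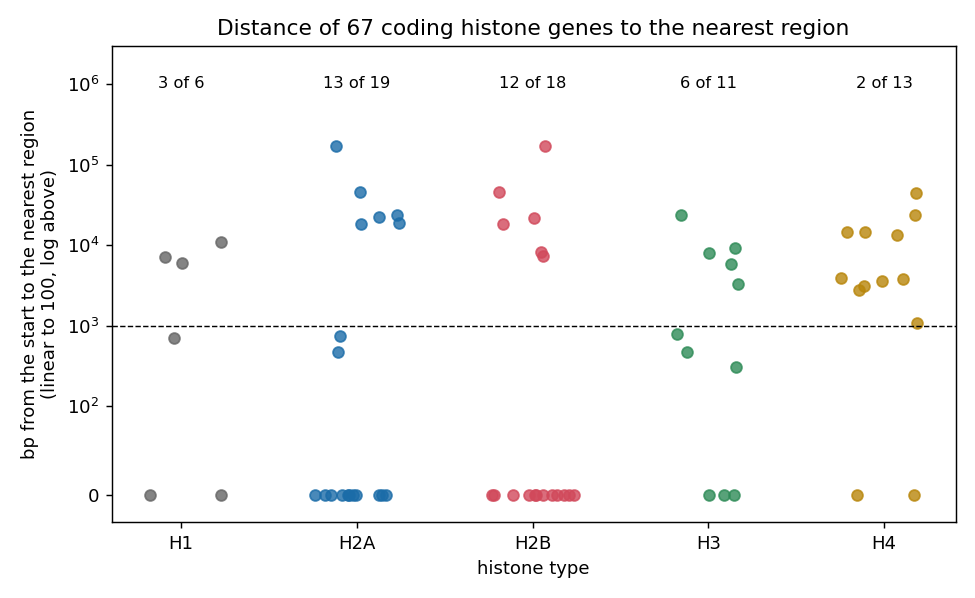
Distance in bp from the annotated start of each of the 67 coding histone genes (points) to the nearest accessible region, by histone type, on an axis that is linear to 100 bp and logarithmic above. The dashed line marks 1 kb and the counts give genes at or below it, which were 13 of 19 for H2A and 2 of 13 for H4.

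Of the 11 H4 genes without an open start, Hist1h4i was the nearest, at 1080 bp from a region over the promoter of Hist1h2ag and Hist1h2bj, and 6 were within 5 kb of a region. The other 5 lay 13444 to 44090 bp away, Hist1h4n being the farthest. In contrast, Hist1h4j had a region under its own name, with an edge-to-edge width of 1776 bp, and the start of Hist1h4a lay in a region of 2221 bp that was assigned to Hist1h3a. Just inside the limit of 1 kb, Hist1h3d was 797 bp and Hist1h2af 748 bp from a region. All 31 genes without an open start lay between 1080 and 171504 bp from a region, with a median of 13444 bp, and 14 of them were within 10 kb.

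By symbol the order of the types was different. A region was assigned to 12 of 18 H2B genes, 5 of 19 H2A genes, 3 of 11 H3 genes, 2 of 13 H4 genes and 1 of 6 H1 genes. Of the 26 regions, 14 carried an H2B symbol and 6 an H2A symbol. By position the H2A and H2B genes had similar shares of open starts, and a region shared by a pair carries the symbol of 1 of its genes only.

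The clusters were then followed along the chromosomes, with genes divided into blocks where the gap between neighbours exceeded 100 kb. The first block of Hist1 (chr13:21807632-21929399) held 18 coding genes, of which 7 had an open start. In the second block (chr13:22126982-22135545) 4 of 5 genes had one, Hist1h4i being the exception. The third block (chr13:23622919-23856283) held 29 genes, and 19 had an open start. Hist1h2ba and Hist1h2aa, a divergent pair known for expression in testis, lay apart from these blocks and were 171198 and 171504 bp from the nearest region. With Hist1h1t, the testis H1 gene, 0 of 3 testis genes had an open start (interval 0 to 56.1%). This interval holds the shares of all coding genes (45.1%) and of those with 1 annotated start (28.9%), so the count does not set these genes apart.

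**Figure D2:**
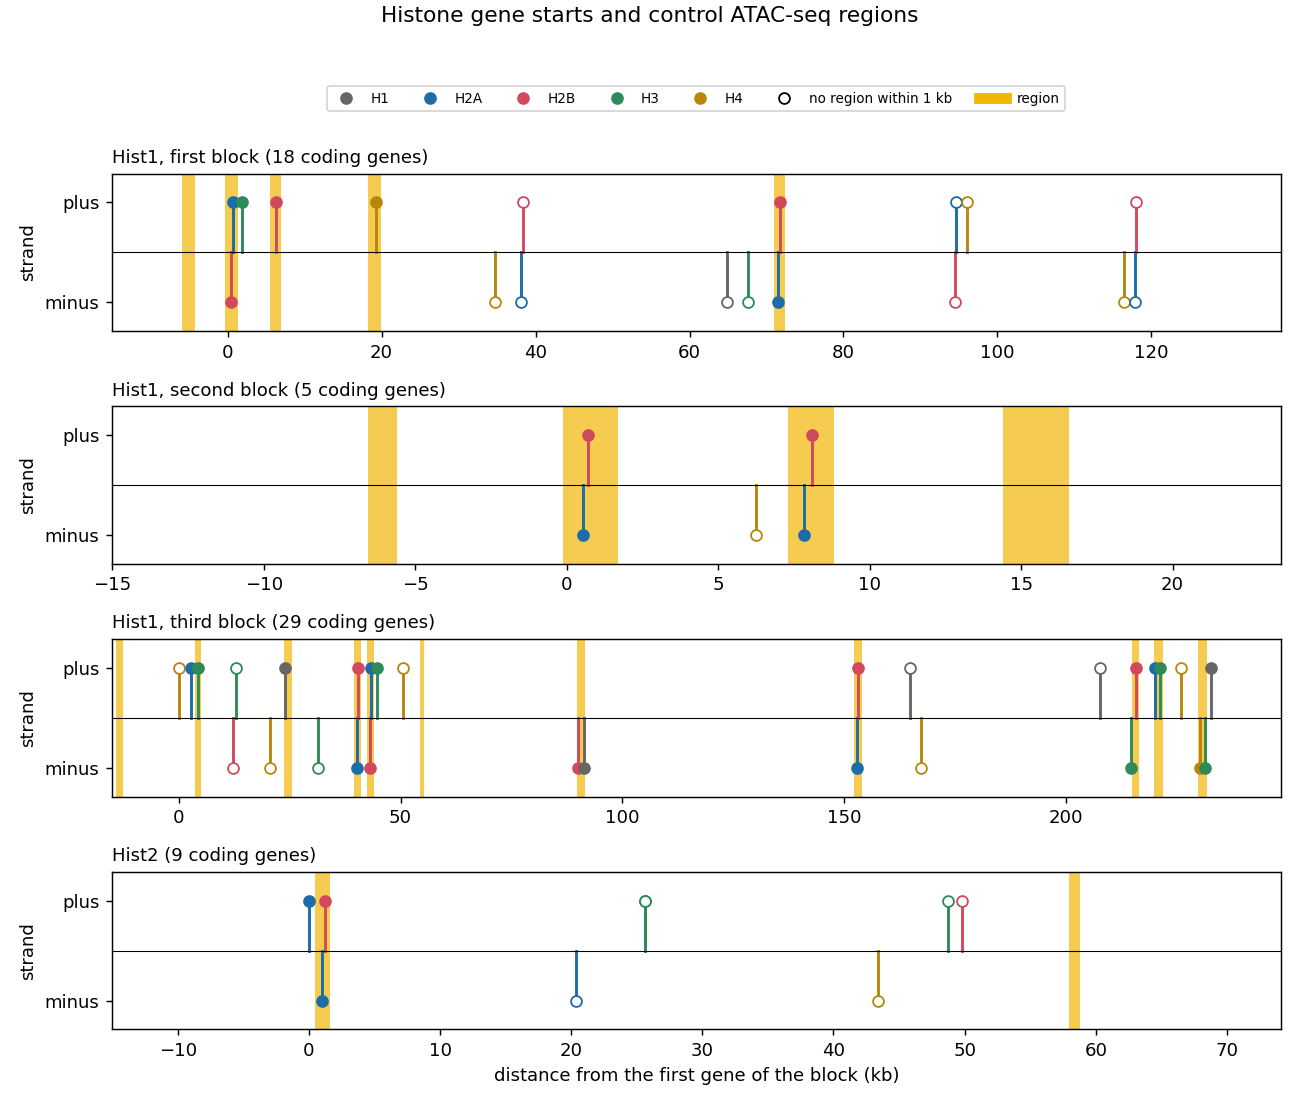
Starts of coding histone genes (stems, coloured by histone type, upward for the plus strand) and accessible regions with a histone symbol (yellow bands) in the 4 blocks with 5 or more genes, by distance in kb from the first gene of each block. Regions with other symbols, which could lie in the margins beside a block, are not drawn. Filled circles have a region within 1 kb, which held for 7 of 18, 4 of 5, 19 of 29 and 3 of 9 genes from top to bottom, and the markers of Hist2h2aa1 and Hist2h3c1 lie on top of each other.

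Hist2 on chromosome 3 held 9 coding genes, and the 3 at one end, Hist2h2ab, Hist2h2ac and Hist2h2be, had an open start. A single region (chr3:96024313-96025413, 1101 bp) covered the starts of Hist2h2ac and Hist2h2be and ended 474 bp from that of Hist2h2ab. The 6 others, Hist2h2aa2, Hist2h2aa1, Hist2h3c1, Hist2h4, Hist2h3b and Hist2h2bb, had none. Both coding genes of Hist3 on chromosome 11 had an open start, each in its own region, of 958 bp for Hist3h2ba and 1302 bp for Hist3h2a. Hist4h4, the only gene of Hist4, was 2740 bp from a region on chromosome 6 that was assigned to H2afj, a replication-independent H2A gene.

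Divergent promoters were examined next. Coding histone genes formed 13 divergent pairs with starts at most 1 kb apart, of which 12 joined an H2A gene with an H2B gene and 1 joined Hist1h2bh with Hist1h3f. The starts of a pair were 168 to 693 bp apart, with a median of 241 bp. In 8 pairs both starts lay in 1 region, and in the 5 other pairs neither start had a region within 1 kb. A pair with starts this close can hardly differ within a window of 1 kb.

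The 8 regions were centred on or near the shared promoter. The centre of the region differed from the midpoint between the starts by -60.5 to 154 bp, and by at most 100 bp in 6 of 8 pairs. Positive values lie toward the gene on the plus strand. The region over Hist1h2bl and Hist1h2ai (chr13:21807311-21809021, 1711 bp, assigned to Hist1h2ai) was centred 19.5 bp from the midpoint. That over Hist1h2ac and Hist1h2bc (chr13:23775042-23776879, 1838 bp) was centred 18.0 bp from it. The region over Hist1h2ah and Hist1h2bk (chr13:22126847-22128662, 1816 bp), whose promoter is printed above, had the largest offset, 154 bp. With starts 178 bp apart, its centre lay past the start of Hist1h2bk, in an exon of that gene. Regions of 1411 bp over Hist1h2an and Hist1h2bp, 1520 bp over Hist1h2ag and Hist1h2bj, 1603 bp over Hist1h2ae and Hist1h2bg, 1400 bp over Hist1h2bf and Hist1h2ad and 1101 bp over Hist2h2ac and Hist2h2be completed the set.

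The 5 pairs without a region were Hist1h2ak with Hist1h2bn, Hist1h2bq with Hist1h2ao, Hist1h2ap with Hist1h2br, Hist1h2bh with Hist1h3f, and Hist1h2ba with Hist1h2aa. The nearest region to any of them was 7372 bp away, at Hist1h2bh. Being part of a pair was not needed for an open start, which was found in 16 of 26 paired genes (61.5%, interval 42.5 to 77.6) and in 20 of 41 unpaired genes (48.8%, interval 34.3 to 63.5), with intervals that overlap.

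Other neighbours also shared regions. In total 11 of the 26 regions held the starts of 2 coding histone genes, 8 held 1 and 7 held 0. The widest region (chr13:23852607-23854827, 2221 bp, assigned to Hist1h3a) covered the starts of Hist1h3a and Hist1h4a and lay 710 bp from that of Hist1h1a. A region of 2144 bp (chr13:23842675-23844818) covered Hist1h2ab and Hist1h3b. The region listed 4 times (chr13:23712694-23714597, 1904 bp) carried the symbol Hist1h2be and covered the start of Hist1h1e, a linker histone gene, together with annotated starts of Hist1h2be. The coding start of Hist1h2be lay in another region, the narrowest of the 26 (chr13:23677347-23678123, 777 bp). That region is among the 7 that held 0 annotated starts.

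**Figure D3:**
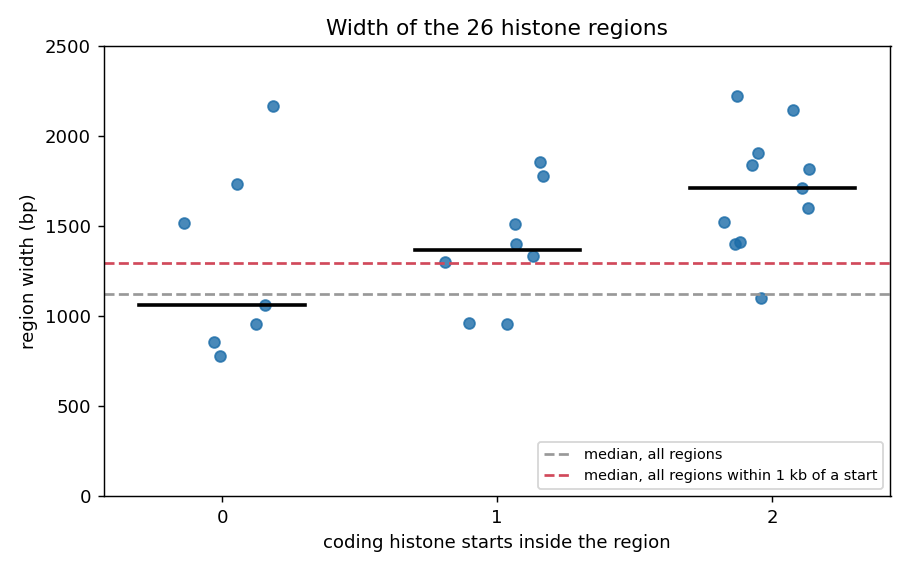
Width in bp of the 26 histone regions (points) by the number of coding histone starts inside, with the median of each group (black bars). The medians were 1059, 1367 and 1711 bp for 0, 1 and 2 starts, and dashed lines give the median of all regions (1123 bp) and of all regions within 1 kb of their assigned start (1294 bp).

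The 26 regions were 777 to 2221 bp wide with a median of 1515 bp (95% interval of the median 1302 to 1776), and the median was 1123 bp for all 17164 regions and 1294 bp for the 9083 within 1 kb of their assigned start. Regions with 2 histone starts had a median of 1711 bp, those with 1 start 1367 bp and those with none 1059 bp, with overlapping ranges. A wider region holds more starts of closely spaced genes by construction, so this order is a description only. Counting starts of any coding gene, 12 of 26 histone regions (46.2%) held at least 2. The share was 5.69% among all regions and 10.7% among all regions within 1 kb of their assigned start. In the 19 regions with at least 1 histone start the median width was 1520 bp, and it was 958 bp when each width was divided by the number of those starts. Width also depends on depth, which is unknown here.

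Next, the regions far from a histone start were examined. In 6 of the 26 regions the deposited distance to the assigned start was over 1 kb, and these were assigned to Hist1h2bl (5480 bp), Hist1h2ah (6602 bp), Hist1h2bj (7367 bp), Hist1h4h (-13362 bp), Hist1h2al (-26232 bp) and Hist2h2bb (8567 bp). Negative distances lie upstream of the start. Their median width was 1287.5 bp, and the one assigned to Hist1h2bj, at 2165 bp, was the second widest of all 26.

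In 4 of these 6 regions a match to the B box of transfer RNA genes was found, the element inside such genes that is bound by the transcription factor TFIIIC for RNA polymerase III. The letters searched were GGTTCNANNCC on either strand. They were present in 0 of the 20 histone regions within 1 kb of their assigned start, in 3.54% of all regions beyond 1 kb and in 4.25% of all regions. The 73 bases around the match, from 51 before the box to 11 after it, are given for 3 of the 4 regions because they show what these regions contain, with the B box in capitals.
Region assigned to Hist1h2bl, chr13:21802447-21802519, plus strand: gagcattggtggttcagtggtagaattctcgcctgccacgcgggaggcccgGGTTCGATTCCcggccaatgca
Region assigned to Hist1h2bj, chr13:22142555-22142627, minus strand: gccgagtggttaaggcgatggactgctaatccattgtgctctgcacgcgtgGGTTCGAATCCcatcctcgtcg
Region assigned to Hist1h4h, chr13:23609070-23609142, plus strand: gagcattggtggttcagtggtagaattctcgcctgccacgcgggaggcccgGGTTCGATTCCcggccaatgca
Region assigned to Hist1h4h, chr13:23610024-23610096, plus strand: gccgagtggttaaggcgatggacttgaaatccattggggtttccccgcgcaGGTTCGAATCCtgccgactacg

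The stretch in the region assigned to Hist1h2bl and the first of the stretches in the region assigned to Hist1h4h had the same 73 letters. The RefSeq gene table of assembly GRCm38.p6, used for the order of genes only, lists transfer RNA genes between the coding genes that flank each of the 4 regions. There were 2 between Olfr1359 and Hist1h2bl, 6 between Prss16 and Hist1h2ah, 1 between Hist1h2bj and Vmn1r188, and 14 between Btn2a2 and Hist1h4h. Between the coding genes that flank the regions assigned to Hist1h2al and Hist2h2bb there were 0, and these regions had no B box match. Which of these genes a region covers was not determined.

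The region assigned to Hist2h2bb (chr3:96081762-96082619, 858 bp) lay with its midpoint in an exon at the far end of that gene's annotated transcript, and that assigned to Hist1h2al (chr13:51324138-51325196, 1059 bp) was intergenic. Hist1h2al also had a region of 964 bp at its start. It is coding in the annotation of the build used here and a noncoding transcript in the deposited list.

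The sequence at the starts was then compared between genes with and without an open start. CpG dinucleotides numbered 6.60 per 100 bases (median) within 500 bp of the 36 open starts and 5.80 around the 31 others. For all coding genes the corresponding medians were 6.30 with an open start and 1.55 without. Histone genes without a region thus had CpG contents near those of open promoters in general. Hist2h2aa1, Hist2h2aa2 and Hist2h3c1 had the most, 10.0 to 10.2 per 100 bases, and had no region.

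Motifs of histone promoters were counted in windows from 250 bases before to 50 after each annotated start, on either strand, for 73 histone starts and 70064 starts of all coding genes. A match is a description of the letters only. CCAAT, the box bound by the factor NF-Y, was in 86.3% of histone windows and 34.8% of all windows. It was in every window of the 6 H1, 19 H2A and 23 H2B starts, in 11 of 12 H3 windows, and in 4 of 13 H4 windows. TATAAA was in 53.4% of histone windows and 11.3% of all windows. A match can lie after a start or in the transcript of a neighbour. Hist1h2ah and Hist1h2bk had a match in their windows but none between their starts.

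The octamer ATTTGCAT, bound by the factor Oct-1 (Pou2f1), was in 7 of 19 H2A and 8 of 23 H2B windows and in no H1, H3 or H4 window (0 of each), and in 1.42% of all windows. AAACACA, the H1 box, was in 5 of 6 H1 windows and 6.42% of all windows, and also in 3 of 23 H2B windows, 1 of 19 H2A windows and 1 of 12 H3 windows. GGTCCG, the core of the H4 element bound by the factor HiNF-P (Hinfp), was in 12 of 13 H4, 2 of 12 H3 and 1 of 23 H2B windows and in 9.92% of all windows, and the H4 window without it was that of Hist1h4a.

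**Figure D4:**
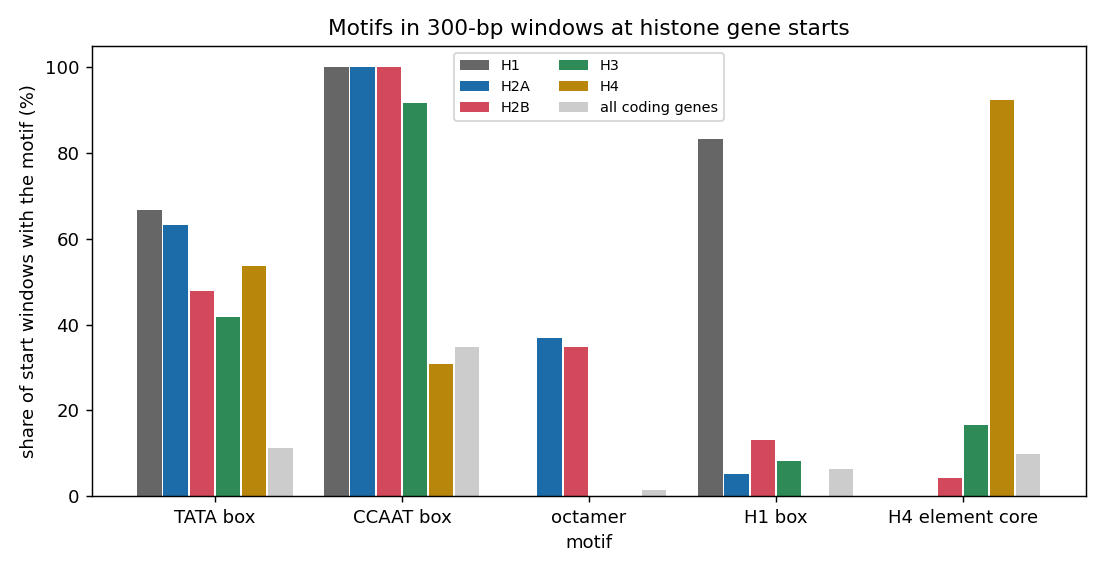
Share in percent of 300-bp windows at annotated starts that hold each motif, for the 5 histone types (coloured bars) and for all coding genes (grey bars). CCAAT was in 100% of H1, H2A and H2B windows and in 30.8% of H4 windows, and the H4 element core was in 92.3% of H4 windows.

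Counted by gene, open starts were found in 12 of 15 genes with an octamer (80.0%, interval 54.8 to 93.0) and in 24 of 52 without (46.2%, interval 33.3 to 59.5). The share among all coding genes was 45.1%. Every gene with an octamer was an H2A or H2B gene, types with an open start in 13 of 19 and 12 of 18 cases. The 52 genes without an octamer include all H1, H3 and H4 genes, so these pooled counts do not separate the octamer from histone type. Some H2A and H2B genes lack the octamer, and the counts were not split within these types. The 3 genes with an octamer and no open start were Hist1h2aa, Hist1h2ba and Hist2h2bb. Some divergent pairs with the octamer share a region. Of the 15 genes with the H4 element core, 1 had an open start, Hist1h4j, and of the 52 without it 35 did. Of the 57 genes with CCAAT 35 had an open start, and of the 10 without it 1 did. Of the 15 genes with the core 12 were H4 genes, and the 3 others, Hist1h3i, Hist1h2bh and Hist1h3f, had no open start. Within H4, 1 of the 4 genes with CCAAT and 1 of the 9 without had an open start. TATAAA was found in 24 of the 36 genes with an open start and in 14 of the 31 without.

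The extent of repeated sequence was measured, because reads from near-identical genes cannot always be placed. It was taken as the share of 31-base words that occur again anywhere in the genome on either strand. The histone regions had a median of 26.3% (range 0 to 63.6, 95% interval of the median 12.1 to 38.7), whereas the median of all regions was 0%. Within 500 bp of gene starts the median was 37.2% for genes with an open start and 29.0% for those without. Hist1h2be was measured at an annotated start far from its coding start, with a share of 0%. The region at its coding start had 43.6%.

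The 6 most repeated starts belonged to a duplicated part of the first Hist1 block. The values were 100% for Hist1h2bq, Hist1h2ao, Hist1h2ap and Hist1h2br, 96.3% for Hist1h4m and 97.2% for Hist1h4n, and 0 of these 6 genes had an open start. The other 61 genes reached at most 72.7%, and 36 of them had one. In the next highest, Hist2h2aa1, Hist2h2aa2 and Hist2h3c1, the share was 71.1 to 72.7% and no region was present. The part that the placing of reads had in these absences was not tested.

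**Figure D5:**
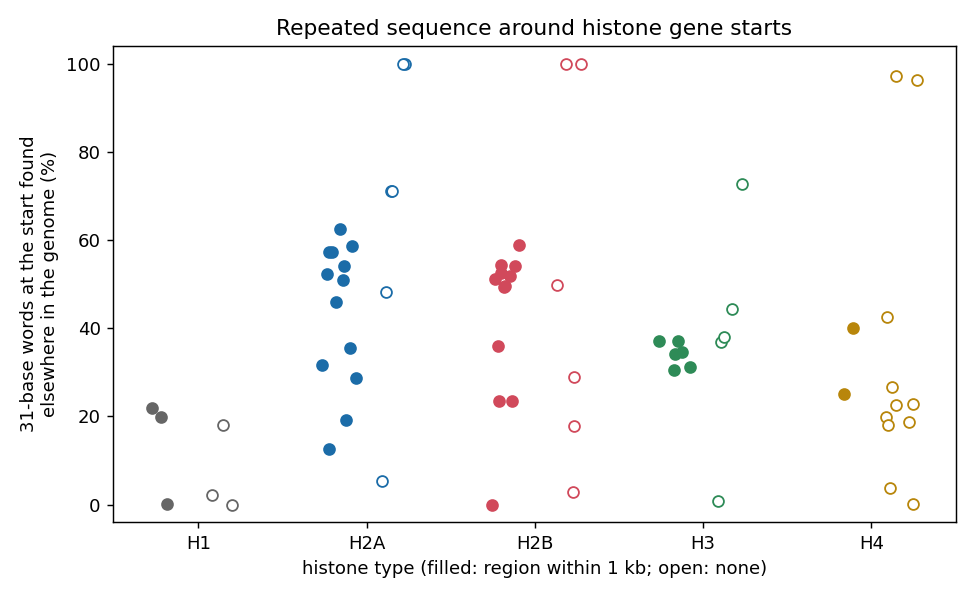
Share in percent of 31-base words around each of the 67 coding histone starts that occur elsewhere in the genome, by histone type, with filled circles for genes with a region within 1 kb and open circles for genes with none. Genes with a region reached at most 62.4%, and the 6 genes at 96.3% or above had none.

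Of the 22 genes with over 50% repeated sequence 13 had an open start (59.1%, interval 38.7 to 76.7), and of the 45 others 23 did (51.1%, interval 37.0 to 65.0). Among these 22 genes, the 13 with an open start reached at most 62.4%, and the 9 without were at 71.1% or above. With the more repeated genes left out, an open start was found in 2 of 11 H4 genes, 6 of 8 H2A genes, 6 of 10 H2B genes, 6 of 10 H3 genes and 3 of 6 H1 genes, with the overlapping intervals given above. Over all genes, the 11 H4 genes without an open start had a median of 22.6% repeated sequence, and the 2 with one had 32.5%. The 6 H2A genes without an open start had a median of 71.1%, and the 13 with one had 50.9%.

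Finally, genes that act with the histone clusters were counted in the same way, against the 45.1% of all coding genes with an open start. Many of them have several annotated starts, which gives more chances of a region nearby. All 12 genes of the list for histone gene transcription, which included the kinase gene Cdk2 and the cyclin genes Ccne1 and Ccne2, had an open start, among them Npat, the coactivator of histone genes at the start of DNA replication, Hinfp and Pou2f1. All 10 histone chaperone genes did as well, including Asf1a, Chaf1a and Nasp. Of 13 genes for the processing of histone mRNA 3′ ends, 10 had an open start, among them Slbp, which encodes the stem-loop binding protein, and Lsm10 and Lsm11, which encode parts of the U7 particle. Snrpb, Ncbp1 and Ncbp2 did not, at 94450, 165731 and 15023 bp from a region.

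Of the 16 replication-independent histone genes in the list, 13 were coding in the annotation, and 7 of these had an open start (53.8%, interval 29.1 to 76.8), a share near that of all coding genes. They were H2afj, H2afv, H2afx, H2afy2, H2afz, H3f3a and H3f3b. H3f3a carried 2 regions, and the region at H2afz, the H2A.Z gene, was 2578 bp wide. The genes with no open start were H1fx, H1foo, H1fnt, Hils1, H2afy and Cenpa, which encodes the centromeric H3 variant. Since a region had to be found in each of the 3 libraries, the lack of one in this list does not show closed chromatin.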

How the data were processed

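ATAC-Seq data of wild-type E8.75 embryos were analysed as deposited. According to the methods of the study and the submitters' processing notes, the authors mapped reads to mm9 with Bowtie2, filtered them with SAMtools, removed duplicates with Picard 1.136, called peaks in each library with MACS14, removed blacklisted peaks and kept regions common to the 3 libraries with bedtools 2.15. No Tn5 offset or mapping quality filter is stated, and the tool that assigned symbols to these regions is not given in the sources used here. The deposited values are region edges and a signed distance to the assigned start, both in bp, with no count, height or score, so depth is unknown. All value columns were mapped (0 left unused).

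Positions were taken as 1-based and closed. Gene starts and coding sequences came from the GENCODE annotation of NCBIM37, and names and gene order only from RefSeq (GRCm38.p6). The deposited distance was within 100 bp of that to an annotated or coding start for 26 of 26 histone regions. An open start was a region within 1 kb of any annotated start, and words and motifs were counted with Python 3.11.15, numpy 2.4.6, pandas 2.3.3 and numba 0.67.0 (plots, matplotlib 3.10.9). The word count was tested on simulated data. Intervals of shares were 95% Wilson intervals (scipy 1.17.1), and no test was made. Some sequences are not reported here.

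The members, gene lists and motifs were chosen with earlier results of these data known. All Hist genes were counted by cluster and type. Regions with the most starts, the widest and narrowest, those beyond 1 kb and those of genes with 2 regions were to be described, up to 12 with positions. The regions beyond 1 kb fell after that limit, and they, their B boxes and the tissue genes were named after their values were seen. Alternatives were other windows and starts, only regions of at least median width, all rows, spans in place of symbols, and 50-base words, and, chosen after seeing the data, the removal of repeated genes and of Hist1h2al.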

Additional observations from a re-analysis of the deposited data

How the results depend on the processing

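The number of genes with an open start was 36 and ranged from 30 to 37 with regions that contain the start, windows of 500 bp or 2 kb, coding starts, or only regions of at least median width (1123 bp). The 36 genes were the same with coding starts. Without genes with over 50% repeated sequence, an alternative chosen after seeing the data, it was 23, of fewer genes, and the share was 51.1% in place of 53.7%. Without Hist1h2al it was 35. The number of histone regions was 26 and ranged from 19 to 29, and that of genes with an assigned region was 23 and ranged from 18 to 23. The median width was 1515 bp for all regions and 958 bp per histone start inside, computed over the 19 regions with at least 1 such start. With 50-base words the median repeated share of the regions was 20.2% in place of 26.3%, and motif shares around coding starts differed by less than the counting interval.

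No paired analysis was possible because the 3 control libraries are given as 1 list, and no library was left out. Heights, depth and the mutant embryos were not analysed here.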
